A study of Mus musculus with 20 samples.

Results

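The mouse transcript uc007hnk.2, named by its UCSC identifier, was followed through ribosome profiling and polysome RNA-seq of E14 embryonic stem cells, a pluripotent line. It is 1 of 9498 transcripts listed in any of the 20 libraries, and it was present in all 20. It was selected on measured values: a high ratio of captured to total ribosome footprints, a large difference between the cell lines, and its distribution between light and heavy polysome fractions. These quantities are therefore given as descriptions without a test. The change with Rpl10a siRNA within each pool, which the choice did not name, was tested. It is formed from light and heavy values that the choice used, so its p-values are not independent of the choice. No identifier of the series matched the reference name tables at hand (0 matches), so the gene, position and sequence of uc007hnk.2 were not analysed here, nor were marker or pathway genes and the level of Rpl10a mRNA.

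Ribosome profiling (Ribo-Seq) sequences the short mRNA fragments that a ribosome shields from RNase, so footprint density reflects how many ribosomes sit on a transcript and how abundant that transcript is. In polysome gradients, mRNAs are separated by the number of ribosomes they carry, and actively translated mRNAs usually sediment in the heavy fractions. Ribosomal proteins such as RPL10A and RPL22 of the large subunit and RPS25 of the small subunit can be tagged, so that ribosomes containing the tagged copy are captured on beads.

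The 12 Ribo-Seq libraries came from 3 E14 lines, each with 1 tagged allele at the gene's own locus: 3xFLAG-Rpl10a, Rps25-3xFLAG and Rpl22-3xHA. Each line had 2 libraries of all ribosomes pelleted through sucrose (total) and 2 of ribosomes captured by immunoprecipitation (IP), with anti-FLAG M2 magnetic beads for RPL10A and RPS25 and an anti-HA antibody for RPL22. The 8 RNA-seq libraries came from wild-type E14 cells transfected with siRNA against Rpl10a or with a control siRNA. Heavy polysomes (4 or more ribosomes per mRNA) formed one pool, and a light pool held everything lighter, from free ribonucleoproteins to mRNAs with 2 to 3 ribosomes, with 2 libraries per pool and siRNA. All cells received 100 µg/ml cycloheximide, which arrests elongating ribosomes, for 1 min before harvest. The labels say neither that a line is a single clone nor that replicates were separate cultures, so the spread given here may be technical. The Rpl22 line's libraries titled total carry an anti-HA antibody in another label field, and the titles were followed.

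Per Ribo-Seq library the RPKM values, which are reads scaled to transcript length and library size, added up to between 1082511 and 1201737. The deposited RPM values of an RNA-seq library added up to between 943664 and 1067209, and are not scaled by transcript length. Read depth is unknown, since the files hold no counts.

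In the Rpl22-3xHA line uc007hnk.2 was the most densely footprinted transcript in all 4 libraries, whereas in both FLAG lines it ranked between 37 and 434 from the top. In the total libraries of the 3xFLAG-Rpl10a line it stood at 429.5 and 951.0 RPKM. The Rps25-3xFLAG line gave 1970.0 and 1101.6 RPKM in its total libraries, and the Rpl22-3xHA line 15356.1 and 15950.8 RPKM. All total libraries of the Rpl22 line were thus above all those of the FLAG lines, and both of the Rps25 line were above both of the Rpl10a line.

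Captured ribosomes also gave the highest values in the Rpl22 line, with a narrower spread between lines. RPL10A IP libraries held 2861.1 and 2727.6 RPKM, RPS25 IP libraries 3434.3 and 2664.4 RPKM, and RPL22 IP libraries 18756.8 and 22739.7 RPKM. The RPL10A and RPS25 IP libraries overlapped, while both RPL22 IP libraries were higher than any other Ribo-Seq library. From its lowest to its highest library uc007hnk.2 varied 52.9-fold. Its range of 5.72 on the log2(RPKM + 1) scale ranked 3 among the 7605 transcripts common to the 3 lines, which had a median range of 0.95.

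**Figure D1:**
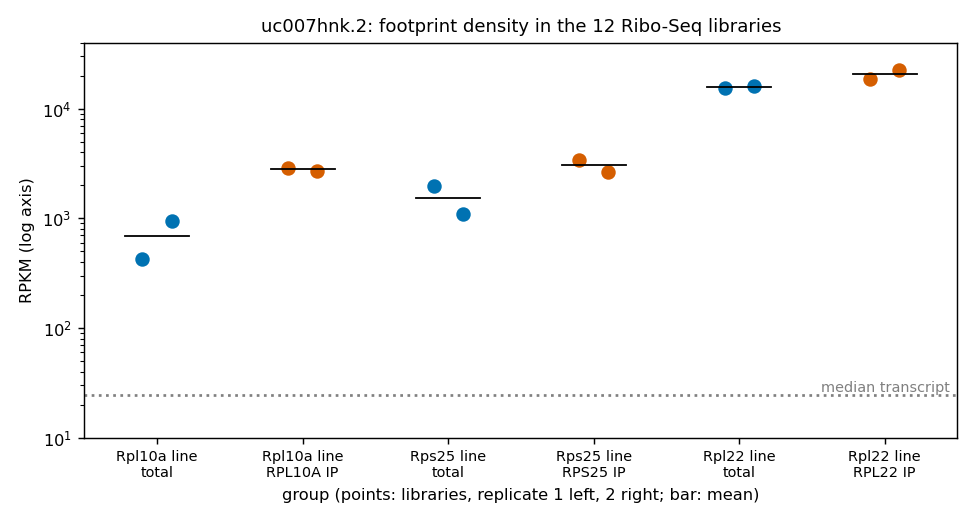
Footprint density of uc007hnk.2 in RPKM (log axis) in the 12 Ribo-Seq libraries, by line and by total or captured (IP) ribosomes. Points are libraries, bars are means of 2, and the dotted line is the median transcript; the 4 Rpl22 libraries lie between 15356.1 and 22739.7 RPKM, above the other 8.

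By share of a library, uc007hnk.2 took 0.0634% of the summed RPKM in the Rpl10a total libraries and 0.137% in those of the Rps25 line, as means of 2. The same share was 1.40% in the total libraries of the Rpl22 line and 1.74% in its IP libraries. In the first Rpl10a total library it lay 17.8-fold above the median transcript, and in the second RPL22 IP library 913-fold. It was thus a densely footprinted transcript in every line. In these bulk samples, fewer cells with the transcript, less of it per cell and fewer ribosomes on each copy cannot be told apart.

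Between total libraries of the lines, the mean of the Rpl22 line, 15653 ± 421 RPKM (SD, n = 2), was 22.7-fold the 690 ± 369 RPKM of the Rpl10a line. The log2 difference of uc007hnk.2, Rpl10a minus Rpl22, was −4.61 (SE 0.32), the lowest of the 7605 common transcripts. Over all of them this difference had a median of 0.03 and an SD of 0.65. The direction of non-overlapping groups is common here, as 35.4% of the common transcripts had both Rpl10a total libraries below both Rpl22 ones. In either direction 2 transcripts, uc007hnk.2 included, had a difference of this size, which is a description, as the transcript was chosen for it.

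Against the Rps25 line the mean of the Rpl22 total libraries was 10.2-fold higher, with 1536 ± 614 RPKM in the Rps25 line (SD, n = 2). The log2 difference, Rps25 minus Rpl22, was −3.41 (SE 0.32), rank 3 from the lowest, and 38.4% of common transcripts had groups apart in this direction. Between the FLAG lines the difference of uc007hnk.2 was smaller. Rpl10a minus Rps25 was −1.20 (SE 0.32), rank 13 from the lowest of 7605, with 20.3% of transcripts apart in that direction. That SE is pooled over all Ribo-Seq groups, and a fit of only the 4 libraries compared gave a larger SE, 0.40. Single libraries mattered for this last difference: it ran from −1.78 to −0.63 with each library left out in turn, the latter without the first Rpl10a total library.

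Among the 50 other transcripts with the highest mean level in the Rpl22 total libraries, 46 differed by less than 1 on the log2 scale between the total libraries of the Rpl22 and Rpl10a lines, and 1 was higher in the Rpl22 line by more than 2. Their differences ran from −0.91 to 2.48, with a median of 0.27. Over all 7605 common transcripts this difference had an SD of 0.65, so one below 1 is not particular to these 50. The share of all transcripts within 1 was not counted. Of the 7262 other transcripts present in all files, 0.44% exceeded 2, and their median was −0.03. The 50 were picked by their level in the Rpl22 line, 1 side of this difference, which favours higher values there. The Rpl22 libraries differed from the others in line, antibody, a lysis buffer that listed no heparin, and processing, since the submitters' processing notes name STAR beside cutadapt and Bowtie2 for them. These cannot be told apart, and each line has its own, separately normalized table.

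Replicates of uc007hnk.2 were far apart in exactly the libraries where it was lowest. The total libraries of the Rpl10a line differed 2.21-fold, a log2 gap of 1.14 that ranked 23 of 8505 transcripts, where the median gap was 0.20. Those of the Rps25 line differed 1.79-fold, a log2 gap of 0.84 that ranked 43 of 8779, where the median gap was 0.11. In the Rpl10a line the second library was the higher one, and in the Rps25 line the first. Of the 7605 common transcripts, 1 had gaps this large in both FLAG lines' total libraries, and that was uc007hnk.2. The limits were its own gaps, so it is counted by construction, and the count is a description.

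Other Ribo-Seq groups of this transcript were closer. RPL10A IP libraries differed 1.05-fold and the total libraries of the Rpl22 line 1.04-fold, both gaps smaller than the median transcript's. RPS25 IP libraries differed 1.29-fold and RPL22 IP libraries 1.21-fold. The RPS25 and RPL22 IP gaps were larger than those of 68.6% and 82.1% of transcripts, so these groups were also less even than most. Every ratio formed with the FLAG total libraries carries their wider spread.

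The RPKM of uc007hnk.2 was higher in captured than in total ribosomes in each line, in every pairing of an IP with a total library. Libraries were scaled separately, so this compares its density relative to the other transcripts of each library and not absolute amounts. For RPL10A the 4 pairings gave ratios from 2.87 to 6.66, with means of 2794 ± 94.4 RPKM in IP and 690 ± 369 RPKM in total libraries (SD, n = 2 each). The mean log2 ratio was 2.13 (SE 0.30), rank 6 of 8505, and it was among the values by which this transcript was chosen. IP libraries lay above total libraries without overlap, as they did for 28.0% of transcripts in that table.

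For RPS25 the pairings gave ratios from 1.35 to 3.12, with 3049 ± 544 RPKM in IP libraries (SD, n = 2). The mean log2 ratio was 1.04 (SE 0.27), rank 61 of 8779, with 27.9% of transcripts apart in this direction. RPL22 pairings ran from 1.18 to 1.48, with 20748 ± 2816 RPKM in IP libraries (SD, n = 2). There the mean log2 ratio was 0.40 (SE 0.11), rank 288 of 8588, with 21.5% of transcripts apart in this direction. The captures thus ranked RPL10A, RPS25, RPL22 by mean ratio, and the ranges of single pairings of neighbouring captures overlapped. The place of RPL22 rests on libraries titled total that carry an anti-HA antibody in another label field.

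**Figure D2:**
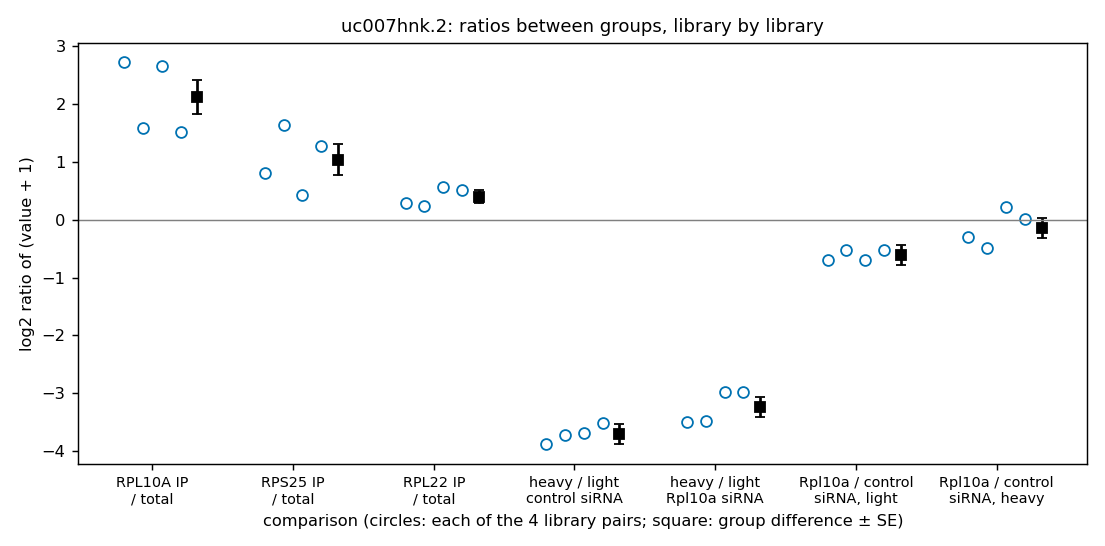
Log2 ratios of uc007hnk.2 (value + 1) for 7 comparisons. Circles are the 4 pairings of a library from each group, and the square is the group difference with its SE from limma; the RPL10A pairings span 1.52 to 2.73, while the 4 heavy against light pairings with control siRNA all lie between −3.89 and −3.52.

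The order of the capture ratios ran opposite to the order of total levels. This is partly built in, since each ratio is IP minus total of the same line and a lower total raises it. Both quantities were also used to choose uc007hnk.2, so the order is only a description. Splitting the difference between captures into its parts, the RPL10A ratio exceeded the RPS25 ratio by 1.09 on the log2 scale. IP libraries contributed a difference of −0.11 (Rpl10a minus Rps25) and total libraries −1.20, so the gap between these ratios lay in the total libraries. Between RPL10A and RPL22 the ratios differed by 1.73, from an IP difference of −2.89 and a total difference of −4.61. Across the lines mean log2 levels spanned 4.61 in total libraries and 2.89 in IP libraries. The IP difference between the FLAG lines had no stable sign, since it was 0.068 without the first RPS25 IP library.

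Groups of IP libraries of the FLAG lines lay below those of the Rpl22 line. The log2 difference of uc007hnk.2, Rpl10a minus Rpl22, was −2.89 (SE 0.32), rank 5 from the lowest of 7605, and 31.0% of transcripts had groups apart in this direction. Rps25 minus Rpl22 was −2.77 (SE 0.32), rank 6 from the lowest, with 31.9% apart in this direction. The difference between lines was thus present in captured as well as total ribosomes, and smaller there.

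In wild-type cells given the control siRNA, uc007hnk.2 stood far higher among the transcripts of the light pool than among those of the heavy pool. Its light libraries stood at 10171.7 and 9070.4, and its heavy libraries at 687.2 and 788.8 of the deposited RPM values. It ranked 4 and 6 of 8084 transcripts in the light libraries, but 230 and 207 in the heavy ones. Pools were scaled separately, so these values compare its place among the transcripts of each pool and not absolute amounts of RNA.

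The mean was 9621 ± 779 in light and 738 ± 71.8 in heavy libraries (SD, n = 2 each), a 13.0-fold ratio. Heavy minus light was −3.70 on the log2(value + 1) scale (SE 0.17), rank 4 from the lowest of 8084 transcripts, which had a median of −0.04 and an SD of 0.81. Light libraries lay above heavy ones without overlap, as for 41.5% of transcripts. For uc007hnk.2 every pairing of a light with a heavy library gave a ratio between 11.5 and 14.8.

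With Rpl10a siRNA its place in the light pool was again far higher. Light libraries stood at 6319.4 and 6291.4, heavy libraries at 560.9 and 797.9. The mean ratio of light to heavy was 9.28, and heavy minus light was −3.23 on the log2 scale (SE 0.17), rank 3 from the lowest, where 29.9% of transcripts were apart in this direction. Over the 8 RNA-seq libraries the log2 range of uc007hnk.2 was 4.18, rank 6 of 8084, against a median of 1.11.

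**Figure D3:**
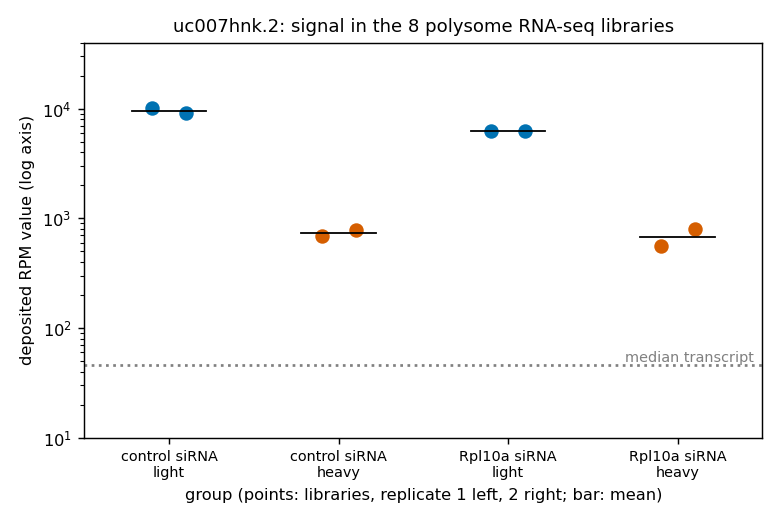
Signal of uc007hnk.2 (deposited RPM value, log axis) in light and heavy polysome pools with control or Rpl10a siRNA. Points are libraries, bars are means of 2, and the dotted line is the median transcript; the 4 light libraries lie between 6291.4 and 10171.7 and the 4 heavy ones between 560.9 and 797.9.

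Rpl10a siRNA within each pool was the comparison tested, on light and heavy values that the choice of uc007hnk.2 had also used. In light libraries the mean of uc007hnk.2 was 6305 ± 19.8 with Rpl10a siRNA and 9621 ± 779 with control siRNA (SD, n = 2 each), and both Rpl10a libraries lay below both controls, as for 29.0% of transcripts. The log2 difference of −0.61 (SE 0.17) did not pass the threshold over all transcripts (limma, adjusted p = 0.0706, unadjusted p = 0.00717), while 6.12% of 8084 transcripts did, with 3.61% of the 8084 on the lower side. A fit of the 4 light libraries alone gave an adjusted p of 0.0368 (limma). With a replicate block the fit of all 8 libraries gave an adjusted p of 0.00594 (limma), and 1912 transcripts were called. With other pseudocounts, scalings, a level filter or no variance trend the difference did not pass (limma, adjusted p from 0.0552 to 0.0892). Its side of the threshold thus depended on how the spread was estimated. Deviations of same-numbered light libraries correlated across transcripts (r = 0.615), but no label ties the numbers to a culture, gradient or day. Without single libraries the difference ran from −0.69 to −0.52.

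In heavy libraries uc007hnk.2 showed no difference larger than the replicate spread. Means were 679 ± 168 with Rpl10a siRNA and 738 ± 71.8 with control siRNA (SD, n = 2 each), and the libraries overlapped. The Rpl10a heavy libraries differed 1.42-fold, a gap larger than that of 84.2% of transcripts. The log2 difference was −0.14 (SE 0.17; limma, adjusted p = 0.519), in a comparison in which 49.5% of transcripts were called. Its sign rested on the Rpl10a heavy libraries: the difference was 0.12 without the first of them (limma, adjusted p = 0.530) and −0.39 without the second (limma, adjusted p = 0.0451).

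The shift, heavy minus light with Rpl10a siRNA minus the same with control siRNA, is formed from the distributions on which uc007hnk.2 was chosen and is given without a test. It was 0.47 toward the heavy side (SE 0.24), where all 8084 transcripts had a median of 0.09. With library medians aligned it was 0.36. It rested much on the Rpl10a heavy libraries, at 0.72 without the first and 0.22 without the second.

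Values of other light-side transcripts are given beside those of uc007hnk.2, which was itself chosen on these quantities, so the contrast is no test. Of the 7263 transcripts present in all files, the 50 others furthest to the light side with control siRNA had heavy minus light differences between −4.19 and −2.37. Among these 50, 18 were higher in Rpl22 total than in Rpl10a total libraries, against 47.7% of the 7262 other transcripts. Their median difference, Rpl22 minus Rpl10a, was −0.27, the highest was 1.95 and 0 exceeded 2, where uc007hnk.2 had 4.61. Of the 7262 others, 0.44% exceeded 2. In the RPL10A IP 20 of the 50 had a log2 ratio above 0, against 49.7% of the 7262 others. Their median was −0.13 and their highest value 0.81, below the 2.13 of uc007hnk.2.

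**Figure D4:**
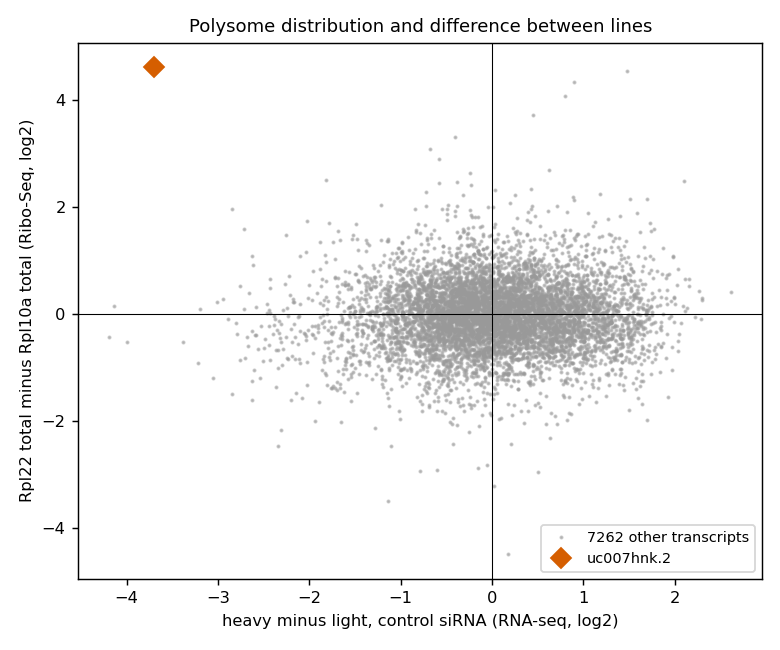
Heavy minus light with control siRNA (x axis, RNA-seq, log2) against Rpl22 total minus Rpl10a total (y axis, Ribo-Seq, log2) for transcripts present in all files. Grey points are 7262 other transcripts and the diamond is uc007hnk.2, at −3.70 and 4.61. Both axes are quantities on which it was chosen. Of the 50 others furthest to the light side, 18 lie above 0 on the y axis, up to 1.95.

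Likeness of pattern was measured by Pearson's r of log2(value + 1) with uc007hnk.2, among transcripts at or above the median level, and is a description without a p. Over the 12 Ribo-Seq libraries uc007hlc.2 (r = 0.991) and uc009ton.2 (r = 0.987) were most alike of 3802 compared, and 6.21% of them had r above 0.9. All libraries of a group share a line and a procedure, so such an r mostly follows the differences between lines. uc007hlc.2 varied over a much smaller span, from 51.2 RPKM in the first Rpl10a total library to 181.7 RPKM in the first RPL22 IP library. uc009ton.2 ran from 37.7 to 138.6 RPKM between the same libraries. Both were thus highest in the Rpl22 line and, by group mean, lowest in Rpl10a total libraries, as was uc007hnk.2, with a 3.55-fold and a 3.68-fold span in place of its 52.9-fold one.

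In RNA-seq those Ribo-Seq look-alikes were not on the light side. Heavy minus light with control siRNA was 1.18 for uc007hlc.2 and 0.38 for uc009ton.2, where uc007hnk.2 had −3.70. The likeness in footprints did not extend to the polysome pools.

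**Figure D5:**
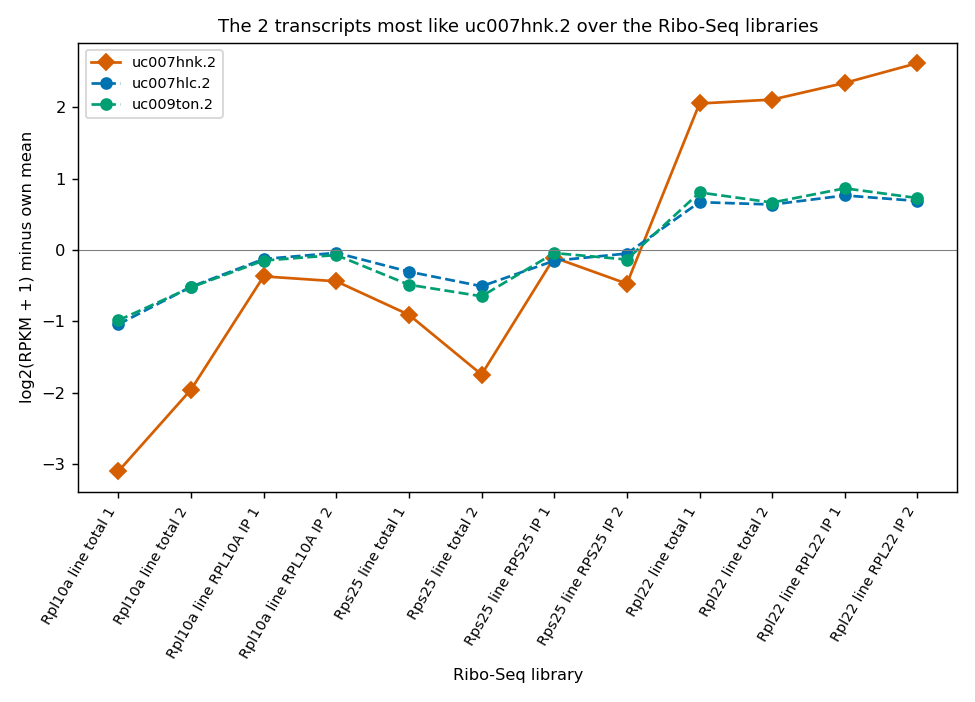
Log2(RPKM + 1) minus each transcript's own mean over the 12 Ribo-Seq libraries, for uc007hnk.2 (diamonds) and the 2 transcripts most like it (circles); lines only join the points of a transcript. In all 3 the Rpl22 libraries are highest, and uc007hnk.2 has the widest span, 5.72 against 1.81 for uc007hlc.2 and 1.85 for uc009ton.2.

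Over the 8 RNA-seq libraries uc009fgp.1 (r = 0.999) and uc007nrp.2 (r = 0.998) were most alike of 4041 compared, of which 10.1% had r above 0.9. uc009fgp.1 stood at 578.2 and 459.0 in control light libraries and at 31.3 in both control heavy ones. With Rpl10a siRNA its light libraries stood at 305.5 and 299.5. uc007nrp.2 was nearer to uc007hnk.2 in level, at 5820.5 and 5890.3 in control light and at 554.6 and 708.7 in control heavy libraries. With Rpl10a siRNA its light libraries held 4001.2 and 4466.7. These transcripts had the light-side place of uc007hnk.2 without its line difference, since Rpl22 minus Rpl10a total was −0.52 for uc009fgp.1 and −0.91 for uc007nrp.2.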

How the data were processed

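Each file holds 1 library. The authors deposited RPKM per transcript for Ribo-Seq, per the file headers. For RNA-seq they deposited values headed RPM, per the file headers, whose sums differ between libraries, so their unit is taken as a signal with an extra scale per library of unstated source. Tools named by the submitters' processing notes, without versions or roles, are cutadapt, Bowtie2 and STAR, and the build is mm10. Values are rounded to 1 decimal, and whole reads were not recovered. No count test was run, the depth is unknown and no interval from counts is given.

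For differences, limma (version 3.58.1, R version 4.3.3) was fitted to log2(value + 1) with a variance trend, over all transcripts of a table. Captures were fitted on the 4 libraries of a line, differences between lines on 12 libraries over 7605 common transcripts, and RNA-seq on 8 libraries. Differences between 2 groups within the 12-library or the 8-library fit share 1 pooled SE, which is not the spread of the compared groups alone. This scale understates the change of low transcripts. Tests were two-sided, with Benjamini-Hochberg adjustment over all transcripts and a threshold of 0.05. The RNA-seq fit was also run on simulated data with noise drawn independently for each library. Deviations of same-numbered RNA-seq libraries correlated in the real data, so that run does not cover this feature. Groups follow sample titles. The polysome shift was planned as a test, but it is formed from distributions that chose the transcript, so it is given as a description. Besides the member, the 2 transcripts with the highest r at or above the median level were named per readout. The transcript, comparisons and settings were chosen with earlier results of these data known. At most 1.53% of values were identical between replicates. Alternatives were other pseudocounts, scalings, a level filter, no trend, a replicate block, smaller or larger fits and single libraries left out.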

Additional observations from a re-analysis of the deposited data

How the results depend on the processing

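Of 114 recalculations of the 14 differences that kept every library, 112 kept their direction and their side of the threshold, or moved by less than 1 SD of the replicates where no test was read. Leaving out 1 of 2 libraries cannot move a difference between 2 groups by more than that SD, so its values are given as ranges only. The siRNA difference in light libraries, −0.61, passed with a replicate block (limma, adjusted p = 0.00594) and in the fit of its 4 libraries (limma, adjusted p = 0.0368). Light values were also used to choose uc007hnk.2, so these p-values are not independent of the choice. Without single libraries it ran from −0.69 to −0.52. The difference in heavy libraries ran from −0.39 to 0.12 and the IP difference between the FLAG lines from −0.30 to 0.068. The shift of 0.47 ran from 0.22 to 0.72. A replicate block, plain or within each siRNA (the latter added after seeing the data), left its value at 0.47 and narrowed its SE from 0.24 to 0.21 and 0.19. The cause was not tested. The numbers were not used as pairs in the main fits, as no label ties them to a culture, gradient or day. Deviations of same-numbered libraries correlated across transcripts with r from 0.526 to 0.622 in RNA-seq, 0.176 in the Rpl22 line and −0.004 and 0.008 in the FLAG lines. In the RNA-seq fit the block moved the number of calls from 495 to 1912 in light libraries. Scaling to library totals moved the median siRNA difference of all transcripts in heavy libraries from 0.01 to 0.12, and uc007hnk.2 then stood at −0.027 instead of −0.14. Without single libraries the RPL10A ratio ran from 1.55 to 2.70, the RPS25 ratio from 0.62 to 1.46 and the RPL22 ratio from 0.26 to 0.54.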

Other observations

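Of the 7262 other transcripts present in all files, 32 were higher in Rpl22 total than in Rpl10a total libraries by more than 2 on the log2 scale. In RNA-seq 14 of these 32 (43.8%) were on the light side with control siRNA, against 50.1% of the 7262. Their heavy minus light differences ran from −1.81 to 2.10, with a median of 0.12, where uc007hnk.2 stood at −3.70.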
